A study of Homo sapiens with 6 samples.

Results

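Interferon-stimulated genes are the genes that cells switch on when an interferon binds its receptor at the cell surface. The 41 genes described here were taken by their symbols, as a list of well-known members of this response. The list was drawn up with earlier results of these data known, so it is not independent of them. All 41 were found among the 57820 genes of the deposited tables with 1 row each. They were compared between 3 CTCF-WT and 3 CTCF-dRBR libraries of total RNA from SEM, a B-cell acute lymphoblastic leukemia (B-ALL) cell line. CTCF is a zinc-finger protein that binds DNA and shapes chromatin loops, and dRBR is a form that lacks the RNA-binding region (RBR). In both groups the endogenous CTCF carried a miniAID-mClover3 tag, and the plant F-box protein OsTIR1 was always expressed, so that the auxin analog 5-Ph-IAA led to degradation of the tagged protein. Both groups received 5-Ph-IAA for 24 h in all, of which the last 18 h were with doxycycline (1 µg/mL) and the 6 h before without, and doxycycline induced an HA-tagged CTCF, wild-type in CTCF-WT and without the RBR in CTCF-dRBR. The genotype label of CTCF-WT names the tagged CTCF but no HA-CTCF, and the titles were used to assign these libraries. Each group is 1 transduced line, and the labels do not say whether replicates were separate cultures, so p-values measure only the spread between these libraries.

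Type I interferons bind a receptor made of IFNAR1 and IFNAR2, whose kinases TYK2 and JAK1 phosphorylate transcription factors of the STAT family, among them STAT2. STAT2 and IRF9 are subunits of the complex ISGF3, which binds the interferon-stimulated response element (ISRE) in the promoters of the induced genes. The products block viral entry, translation, replication and release, sense foreign nucleic acid, or feed back on the pathway, and many tumor and blood cells hold a low level of them without added interferon.

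The libraries differed in depth and in how their levels followed GC content. Total expected counts, RSEM's estimates of the reads per gene, lay between 30034505 and 53166735, lowest in CTCF-dRBR replicate 1, and 14044 genes had at least 1 CPM, counts scaled to equal library totals, in any library and were tested. CTCF-dRBR replicate 1 stood apart, with Spearman's rho of log2 CPM with the other libraries between 0.913 and 0.968 across genes. The deviation of a library from the mean of all 6 followed the GC content of the genes, with rho of 0.71, 0.67 and 0.34 in CTCF-WT replicates 1, 2 and 3 and −0.78, −0.42 and 0.50 in CTCF-dRBR replicates 1, 2 and 3. Genes are not independent, so no p was computed. *CTCF* itself, which sums tagged and induced transcripts, had 209.9, 211 and 249 CPM in CTCF-WT and 273, 264 and 252 in CTCF-dRBR (replicates 1, 2 and 3 in this order, here and in all values that follow), with a log2 difference, CTCF-dRBR over CTCF-WT and with its standard error (SE), of 0.24 (SE 0.10, limma-voom, adjusted p = 0.202). Of the markers of the B lineage, 9 of 9 with a row were tested, among them *PAX5* at 392, 369 and 322 CPM in CTCF-WT and 165, 258 and 307 in CTCF-dRBR. Of the 9, 3 were higher and 6 lower in CTCF-dRBR, with a median log2 fold change of −0.25. With the GC trend removed 6 were higher, with a median of 0.29. In that fit 3 were called higher and 0 lower, where 3.97% of all genes were called higher and 5.27% lower. The 3 with the smallest p were *BLNK*, *EBF1* and *PAX5*, at 0.82, 0.27 and −0.60 on the log2 scale. Among 23 markers of T, NK, monocytic, dendritic, fibroblast and epithelial cells, *NKG7* (−0.70 on the log2 scale) and *LYZ* (−0.17) alone reached 1 CPM, and the summed level of the fibroblast and epithelial markers was at most 1.67 CPM. Their summed level was between 15.1 and 23.3 CPM (CTCF-WT) and 9.86 and 15.8 CPM (CTCF-dRBR) for T and NK markers, and between 5.68 and 6.99 CPM for monocyte and dendritic markers in all libraries. The part of these levels in the results was not tested. Fewer cells of a type and less RNA per cell cannot be told apart in such libraries.

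The ISRE is shown for members whose values are described further on, to set the shared element beside genes that stood higher and lower in CTCF-dRBR. The promoter windows, 250 bases before to 50 after a start, came from RefSeq (GRCh38.p14), which held 1 or more for 32 of the 41 members. The motif GAAA, any 2 bases and GAAA was searched on both strands. It was found in a window of 21 of these 32 genes (65.6%), against 1195 of all 27305 genes with a window (4.38%), and per window in 59.1% against 3.57% of all 35116. The shorter gamma-activated site TTCNNNGAA, which reads the same on both strands, was present in 11 of the 32 genes (34.4%) against 9.38% of all genes. The stretches lie upstream of a start of *IFI44* (chr1:78649746-78649805, plus strand), *IFIT1* (chr10:89392482-89392541, plus strand), *IFIT3* (chr10:89332410-89332469, plus strand), *PARP14* (chr3:122680785-122680838, plus strand), *HERC5* (chr4:88457020-88457079, plus strand), *IFI6* (chr1:27672273-27672332, minus strand), *ISG15* (chr1:1013365-1013424, plus strand) and *BST2* (chr19:17405726-17405785, minus strand). Each is written 5′ to 3′ on the strand of the gene, and capitals mark 1 match to the motif, as TTTC, any 2 bases and TTTC where it lies on the opposite strand.
IFI44: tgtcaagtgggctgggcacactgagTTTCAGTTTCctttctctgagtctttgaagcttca
IFIT1: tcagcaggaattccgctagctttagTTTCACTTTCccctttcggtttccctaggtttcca
IFIT3: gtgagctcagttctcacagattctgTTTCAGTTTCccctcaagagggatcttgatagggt
PARP14: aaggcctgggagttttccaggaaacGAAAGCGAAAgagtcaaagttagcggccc
HERC5: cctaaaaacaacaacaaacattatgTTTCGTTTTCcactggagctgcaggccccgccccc
IFI6: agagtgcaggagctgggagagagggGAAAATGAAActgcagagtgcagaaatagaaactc
ISG15: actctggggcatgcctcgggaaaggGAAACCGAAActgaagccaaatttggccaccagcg
BST2: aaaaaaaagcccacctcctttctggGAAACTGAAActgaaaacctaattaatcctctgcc
The match begins 60, 116, 94, 29, 74, 115, 107 and 130 bases before the start in these genes, in the order shown. The 8 were taken from genes that hold a match.

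More of the listed interferon-stimulated genes stood higher than lower in CTCF-dRBR, whereas a further list, described near the end, was split in direction. Of the 41 members, 37 were tested, and 28 of them were higher and 9 lower, with a median log2 fold change of 0.33 against −0.0076 over all genes tested. None passed an adjusted p of 0.05 in limma-voom, as none of the 14044 genes did (0.0%). The smallest limma-voom adjusted p among members, 0.0959, was a value shared with other genes. It was the smallest both among genes under 50% GC and among those of 50% GC or more, so it does not rank a member first. At an unadjusted p under 0.05, which 25.4% of all genes tested had, 15 members were higher (12.6% of all genes were) and 1 was lower (12.8%). In edgeR, too, no member and no gene passed (0.0%), and 16 members had an unadjusted p under 0.05, as 24.7% of all genes did. In 18 members the groups did not overlap and CTCF-dRBR was the higher, against 20.0% of all genes tested, and in 1 member it was the lower (17.5%). *IFI44L* reached 1 CPM in CTCF-dRBR replicate 1 alone and so was tested only through the group where it was high. Without it, 27 of 36 members were higher, with a median log2 fold change of 0.32, and 17 were higher without overlap. An exact permutation test of 3 libraries against 3 cannot go below p = 0.1. The summed CPM of the 41 members was between 1199 and 1235 in CTCF-WT and between 1380 and 1526 in CTCF-dRBR.

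**Figure D1:**
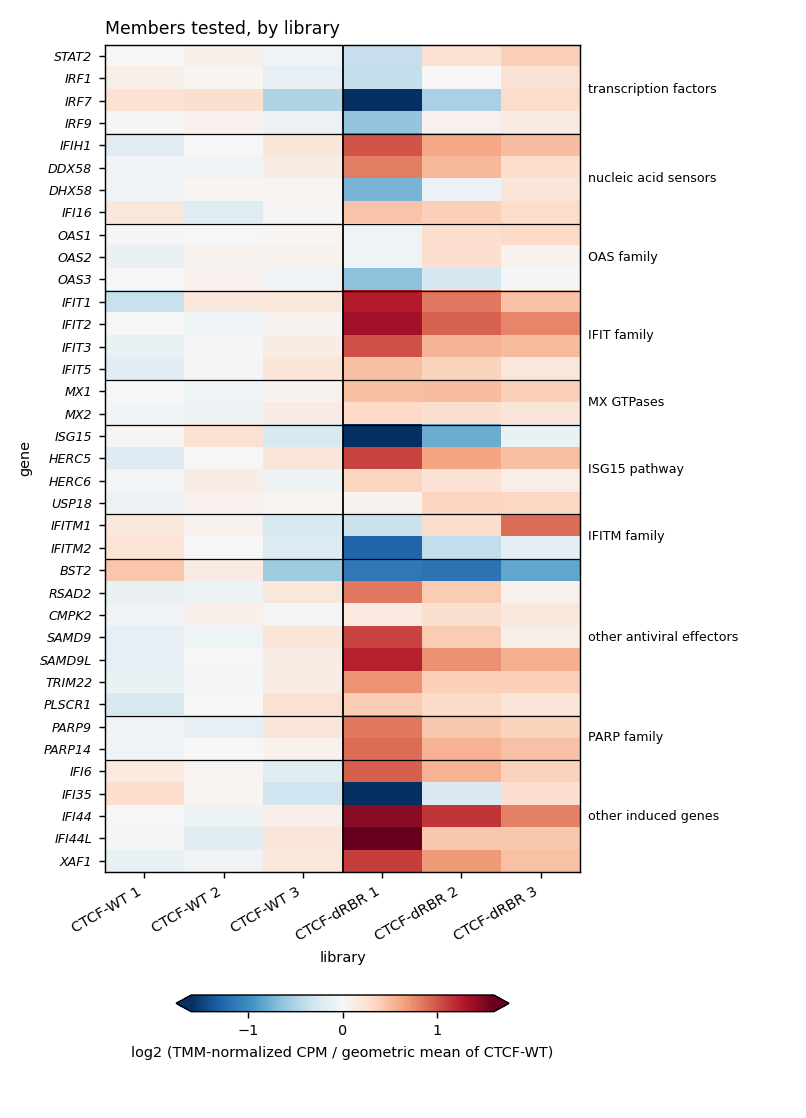
Level of the 37 members tested in each library, as log2 of TMM-normalized CPM over the geometric mean of the CTCF-WT libraries, with rows grouped by role and the color scale ending at ±1.6. The IFIT and PARP genes are red in all 3 CTCF-dRBR columns, whereas *ISG15*, *IRF7* and *IFI35* are darkest blue in CTCF-dRBR replicate 1.

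In the 4 transcription factors the groups overlapped. *STAT2*, a subunit of ISGF3, had 56.8, 60.0 and 54.0 CPM in CTCF-WT and 43.9, 67.5 and 73.9 in CTCF-dRBR and a log2 difference of 0.11 (SE 0.20, limma-voom, adjusted p = 0.700). *IRF9*, the DNA-binding subunit of the same complex, whose gene overlaps another on the same strand, had 11.8, 12.1 and 10.9 CPM in CTCF-WT and 7.45, 12.1 and 12.7 in CTCF-dRBR, with −0.12 (SE 0.22, limma-voom, adjusted p = 0.708). *IRF1*, which is induced by interferon gamma, had 52.0, 49.6 and 44.5 CPM in CTCF-WT and 37.3, 48.2 and 57.1 in CTCF-dRBR. In these genes CTCF-dRBR replicate 1 was the lowest library and CTCF-dRBR replicate 3 the highest, so that the groups overlapped. *IRF7*, the factor that raises interferon alpha production, had 17.2, 17.5 and 10.5 CPM in CTCF-WT and 2.41, 10.2 and 17.95 in CTCF-dRBR, and its log2 fold change of −0.87 (SE 0.67, limma-voom, adjusted p = 0.381) rested on 2.41 CPM in CTCF-dRBR replicate 1. Without that library it was −0.12, and *IRF1* and *IRF9* turned from −0.03 and −0.12 to 0.11 and 0.097. *IRF1* was also positive with library sizes alone and on the TPM scale, as was *IRF9* on the TPM scale.

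Of the 4 sensors of foreign nucleic acid tested, 3 stood higher in CTCF-dRBR without overlap. *IFIH1*, which encodes the sensor MDA5 of long double-stranded RNA, had 10.4, 11.8 and 13.6 CPM in CTCF-WT and 23.8, 18.2 and 16.7 in CTCF-dRBR, a log2 difference of 0.68 (SE 0.19, limma-voom, adjusted p = 0.140). *DDX58*, which encodes the sensor RIG-I of short RNA with a triphosphate end, had 26.1, 25.7 and 29.4 CPM in CTCF-WT and 47.8, 39.2 and 32.7 in CTCF-dRBR, with 0.52 (SE 0.16, limma-voom, adjusted p = 0.152). *IFI16*, a sensor of DNA, had 89.7, 69.2 and 80.6 CPM in CTCF-WT and 109, 103 and 97.1 in CTCF-dRBR and 0.38 on the log2 scale (SE 0.12, limma-voom, adjusted p = 0.158). In each of the 3 genes the groups did not overlap, and the highest value was that of CTCF-dRBR replicate 1. *DHX58*, a helicase that modulates both RNA sensors and is more GC-rich (56.5%) than these, was between 4.55 and 8.73 CPM in all libraries, with a log2 fold change of −0.19. With the GC trend removed, *IFIH1* and *DDX58* were at 0.41 and 0.28, still without overlap. *IFI16* was then at 0.096 and its groups overlapped, whereas *DHX58* was at 0.27 and higher in CTCF-dRBR without overlap. The part of GC content in these values was not tested.

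The IFIT genes, whose products bind viral RNA and hold back its translation, lie side by side on chromosome 10 and were all higher in CTCF-dRBR. *IFIT2* (ENSG00000119922.7, chr10:91043451-91069028 in GRCh37) had 7.38, 6.99 and 7.64 CPM in CTCF-WT and 18.7, 14.1 and 12.6 in CTCF-dRBR. The log2 fold change was 1.00 (SE 0.18), a fold of 2.00, with the smallest adjusted p among the members (limma-voom, 0.0959). *IFIT3* had 8.95, 9.56 and 10.5 CPM in CTCF-WT and 19.8, 14.0 and 13.7 in CTCF-dRBR and a log2 difference of 0.67 (SE 0.18, limma-voom, adjusted p = 0.140). *IFIT1*, which recognizes RNA caps that lack a methyl group, stood far lower, at 1.41, 2.05 and 2.04 CPM in CTCF-WT and 4.35, 3.24 and 2.504 in CTCF-dRBR, with 0.83 (SE 0.27, limma-voom, adjusted p = 0.158). In these 3 genes no CTCF-dRBR library fell to the level of a CTCF-WT library. *IFIT5*, the most abundant of the family in CPM, had 29.1, 32.8 and 38.0 CPM in CTCF-WT and 46.0, 42.3 and 37.7 in CTCF-dRBR and 0.33 on the log2 scale (SE 0.14, limma-voom, adjusted p = 0.204), and CTCF-dRBR replicate 3 was below CTCF-WT replicate 3. The genes *IFIT1*, *IFIT2* and *IFIT3* overlap *LIPA* on the other strand in the annotation. On the same strand a noncoding RNA overlaps *IFIT2* and the pseudogene *IFIT6P* overlaps *IFIT3*. The deposited tables are labeled as stranded RNA, but the strand setting of the counting is not given in the sources used here.

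Of the OAS genes, *OAS1*, *OAS2* and *OAS3* encode enzymes that make the messenger 2′-5′-oligoadenylate, which activates RNase L. They showed little difference. *OAS1* had 14.3, 14.6 and 15.0 CPM in CTCF-WT and 14.0, 17.4 and 18.1 in CTCF-dRBR, with a log2 difference of 0.18 (SE 0.14, limma-voom, adjusted p = 0.394), and *OAS2* had 20.03, 22.3 and 22.4 CPM in CTCF-WT and 20.7, 26.01 and 22.4 in CTCF-dRBR. Both overlapped between the groups. The log2 fold change was 0.10 in *OAS2* and −0.30 in *OAS3*, which was between 4.61 and 7.58 CPM, and *OASL* held 5 to 29 counts a library and was not tested. A noncoding RNA overlaps *OAS1*, *OAS2* and *OAS3* on the other strand in the annotation.

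Both MX genes, which encode dynamin-like GTPases that trap viral capsids, were higher in every CTCF-dRBR library than in any CTCF-WT library. *MX1* had 3.46, 3.29 and 3.57 CPM in CTCF-WT and 4.81, 4.83 and 4.46 in CTCF-dRBR, with 0.45 on the log2 scale (SE 0.14, limma-voom, adjusted p = 0.152). *MX2* had 10.047, 9.76 and 11.3 CPM in CTCF-WT and 12.97, 12.3 and 11.9 in CTCF-dRBR, with 0.25 (SE 0.13, limma-voom, adjusted p = 0.241). *MX1* overlaps *TMPRSS2* on the other strand in the annotation.

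The ISG15 pathway was not uniform. ISG15 is a ubiquitin-like protein that is joined to other proteins after interferon, and *ISG15* (ENSG00000187608.5) had 10.9, 12.7 and 9.001 CPM in CTCF-WT and 1.84, 6.24 and 9.996 in CTCF-dRBR. The log2 fold change was −1.07 (SE 0.55, limma-voom, adjusted p = 0.243), with CTCF-dRBR replicate 3 inside the range of CTCF-WT and CTCF-dRBR replicate 1 far below, and it was −0.45 without that library. *HERC5*, the ligase that attaches ISG15, went the other way at 28.9, 33.6 and 38.2 CPM in CTCF-WT and 70.3, 51.6 and 46.5 in CTCF-dRBR, with 0.70 (SE 0.19, limma-voom, adjusted p = 0.139) and no overlap. *USP18*, the protease that removes ISG15 and damps the receptor, had 15.6, 17.5 and 17.1 CPM in CTCF-WT and 17.3, 21.1 and 21.1 in CTCF-dRBR and a log2 difference of 0.25 (SE 0.13, limma-voom, adjusted p = 0.248). *HERC6*, between 4.13 and 5.55 CPM, had 0.22. *ISG15* is GC-rich (63.4%), whereas *HERC5* is not (43.1%), and the part of GC content in their directions was not tested.

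The IFITM genes encode small membrane proteins that block the entry of viruses, and *IFITM2* held the highest mean CPM of the members in CTCF-WT, but stood below *PARP14* and *SAMD9* in CTCF-dRBR. It had 273, 237 and 201 CPM in CTCF-WT and 96.4, 179 and 213 in CTCF-dRBR and a log2 difference of −0.59 (SE 0.30, limma-voom, adjusted p = 0.233). CTCF-dRBR replicate 1 was the lowest library and CTCF-dRBR replicate 3 lay within the range of CTCF-WT. *IFITM1*, between 2.73 and 6.48 CPM, had 0.32, and *IFITM3*, with 5.19 to 19.6 expected counts a library, was not tested. The coding sequences of these genes are nearly the same, so that reads may have been split between them and each level is uncertain.

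Other antiviral effectors were mostly higher in CTCF-dRBR, with *BST2* as the exception. *SAMD9L*, which with its neighbor *SAMD9* restricts poxviruses and slows growth, had 14.0, 15.4 and 16.6 CPM in CTCF-WT and 36.2, 25.3 and 22.6 in CTCF-dRBR, with 0.81 on the log2 scale (SE 0.20, limma-voom, adjusted p = 0.129) and no overlap. *SAMD9* had 111, 116 and 139.7 CPM in CTCF-WT and 259, 161 and 129 in CTCF-dRBR and 0.52 (SE 0.26, limma-voom, adjusted p = 0.233), and here CTCF-dRBR replicate 3 was below CTCF-WT replicate 3. *TRIM22*, a ubiquitin ligase that represses viral transcription, had 68.6, 72.5 and 80.8 CPM in CTCF-WT and 121, 96.4 and 96.4 in CTCF-dRBR and a log2 difference of 0.49 (SE 0.13, limma-voom, adjusted p = 0.139), without overlap. It overlaps *TRIM5* on the other strand in the annotation, and *OR52P1*, *OR56B1* and a pseudogene on the same strand. *PLSCR1*, a phospholipid-binding protein induced by interferon, had 23.8, 28.6 and 33.7 CPM in CTCF-WT and 37.7, 35.3 and 32.6 in CTCF-dRBR, with 0.29 on the log2 scale, and the groups overlapped. *CMPK2*, a mitochondrial nucleotide kinase, had 11.1, 12.1 and 11.3 CPM in CTCF-WT and 12.8, 13.7 and 12.9 in CTCF-dRBR, with 0.19 and no overlap. Its neighbor *RSAD2*, which encodes viperin, was between 2.45 and 4.71 CPM, with 0.41. *CMPK2* and *RSAD2* overlap each other on opposite strands in the annotation.

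*BST2* (ENSG00000130303.8, chr19:17513748-17516439 in GRCh37) encodes tetherin, which holds budding virions at the cell surface. It had 82.3, 65.8 and 40.5 CPM in CTCF-WT and 27.3, 26.7 and 34.0 in CTCF-dRBR and was the 1 member below CTCF-WT in every CTCF-dRBR library. The log2 fold change was −1.04 (SE 0.29, limma-voom, adjusted p = 0.140), a level 2.05-fold higher in CTCF-WT, and it stayed at −1.002 without CTCF-dRBR replicate 1. Within CTCF-WT the values spread from 40.5 to 82.3 CPM, and over all alternatives the log2 fold change lay between −1.33 and −0.18.

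The PARP genes encode enzymes that transfer ADP-ribose, and *PARP9* and *PARP14* act on STAT signaling. *PARP14* (ENSG00000173193.9, chr3:122399686-122449687 in GRCh37) had 132, 138 and 143 CPM in CTCF-WT and 255, 202 and 190.1 in CTCF-dRBR, with 0.63 on the log2 scale (SE 0.13, limma-voom, adjusted p = 0.108). Its lowest CTCF-dRBR value was above its highest CTCF-WT value. *PARP9* had 22.7, 21.5 and 26.9 CPM in CTCF-WT and 42.4, 31.9 and 30.1 in CTCF-dRBR and a log2 difference of 0.52 (SE 0.17, limma-voom, adjusted p = 0.158), also without overlap. It overlaps *DTX3L* on the other strand, the gene of its partner ligase, which had 102, 110.0 and 106 CPM in CTCF-WT and 131, 93.4 and 92.04 in CTCF-dRBR.

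Of the other induced genes, *IFI44* showed the highest log2 fold change of all members. *IFI44* (ENSG00000137965.6, chr1:79115481-79129763 in GRCh37), a cytoplasmic protein of little-known function, had 1.47, 1.38 and 1.55 CPM in CTCF-WT and 3.98, 3.24 and 2.56 in CTCF-dRBR, with 1.10 (SE 0.22, limma-voom, adjusted p = 0.108), a fold of 2.15 at a low level. *XAF1*, which promotes apoptosis by opposing XIAP, had 39.6, 41.3 and 48.8 CPM in CTCF-WT and 92.99, 69.2 and 59.8 in CTCF-dRBR, with 0.74 (SE 0.18, limma-voom, adjusted p = 0.130). *IFI6*, a mitochondrial and endoplasmic reticulum protein that limits apoptosis, had 7.66, 7.07 and 5.98 CPM in CTCF-WT and 13.3, 10.1 and 8.85 in CTCF-dRBR, with 0.61 (SE 0.20, limma-voom, adjusted p = 0.157), and was the member with the highest fold among those of 50% GC or more. None of the 3 overlapped between the groups. In the annotation a noncoding RNA overlaps *IFI6* on the same strand. *IFI44L* reached 1 CPM in CTCF-dRBR replicate 1 only, at 1.10 CPM against 0.292 to 0.446 CPM in the other libraries. *IFI35*, a partner of NMI, was between 1.10 and 6.89 CPM, with −0.66 (SE 0.61). It was lowest in CTCF-dRBR replicate 1, and without that library its log2 fold change was 0.017. *IFI27* (4 to 17 counts) and *EPSTI1* (7 to 21 counts) were not tested.

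**Figure D2:**
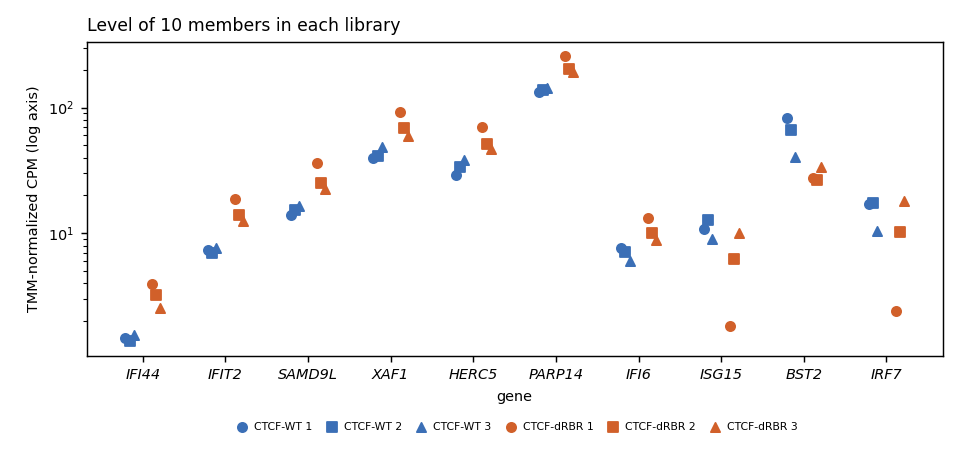
TMM-normalized CPM of 10 members in each library on a log axis, CTCF-WT in blue and CTCF-dRBR in orange, with the shape of the point giving the replicate. The CTCF-dRBR points of *IFI44*, *IFIT2* and *PARP14* lie above all CTCF-WT points, those of *BST2* lie below, and those of *ISG15* and *IRF7* spread from 1.84 to 9.996 and from 2.41 to 17.95 CPM.

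The direction of a member went with its GC content, as it did over all genes. Of the 26 tested members under 50% GC, 25 were higher in CTCF-dRBR, with a median log2 fold change of 0.50, against 71.7% and a median of 0.18 over the 8267 genes under 50% GC (24 of 25 and a median of 0.49 without *IFI44L*). Of the 11 members at 50% GC or more, 3 were higher, with a median of −0.19 against −0.46 over 5387 genes. The 3 were *IFI6*, *IFITM1* and *STAT2*. Spearman's rho of GC content with the log2 fold change was −0.71 over the 37 members and −0.68 over 13654 genes, a description of genes that share the same 6 libraries. Per library, the median log2 deviation of the members under 50% GC from the CTCF-WT mean was 0.83, 0.41 and 0.34 in CTCF-dRBR replicates 1, 2 and 3, and 0.37, 0.15 and 0.06 over all genes under 50% GC. At 50% GC or more these medians were −0.74, −0.10 and 0.23 for the members and −1.02, −0.37 and −0.06 for all genes. In both of these wide classes the median of the members was above that of all genes in each CTCF-dRBR library. The medians of members and of all genes moved with the library, and single members such as *BST2* and *OAS3* lay below the genes of like GC content. The part of GC content in the values of single members was not tested.

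**Figure D3:**
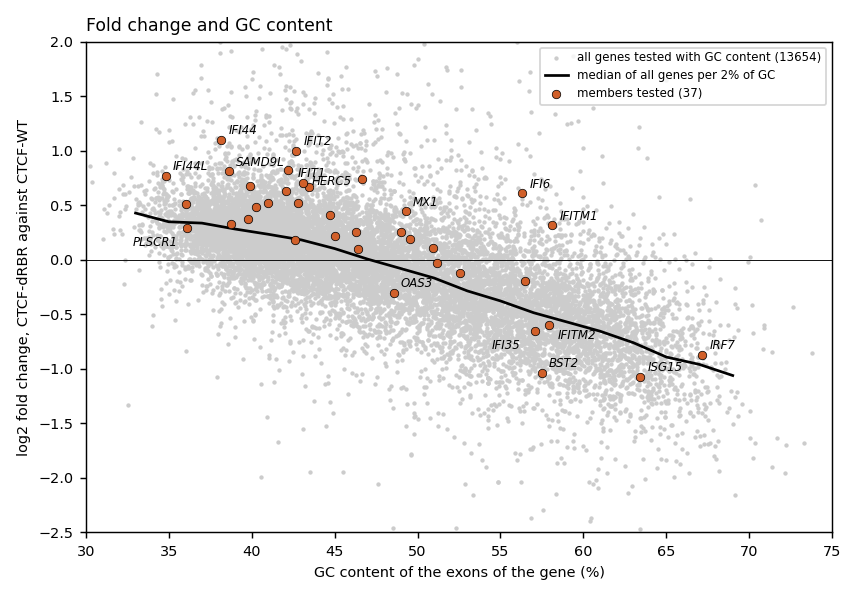
Log2 fold change against the GC content of the exons for the 13654 genes tested with a GC content (gray; 103 lie outside the axes), the median of all genes in bins of 2% GC with at least 25 genes (line) and the 37 members (orange). The median of all genes falls with GC content, and *IFI44*, *IFIT2*, *IFI6* and *IFITM1* lie above the line while *BST2* and *OAS3* lie below it.

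When the trend over GC content was subtracted from each library before the fit, 30 of the 37 members were higher, with a median log2 fold change of 0.27 against −0.01 over all genes, and 19 were higher without overlap, 18 without *IFI44L* (17.7% of all genes were), and 0 lower (21.7%). In that fit 10 members passed an adjusted p of 0.05, all of them higher, where 3.97% of the 13654 genes were called higher and 5.27% lower. With limma-voom on these values the adjusted p was 0.0191 for *IFIT2*, *PARP14* and *IFITM1*, 0.0209 for *IFI44*, 0.0251 for *SAMD9L* and 0.0390 to 0.0493 for *HERC5*, *IFIT3*, *IFIH1*, *MX1* and *XAF1*. The log2 fold changes were 0.80 (*IFIT2*), 0.41 (*PARP14*), 0.87 (*IFITM1*), 0.80 (*IFI44*) and 0.52 (*SAMD9L*). For *IFIT2* this adjusted p lay between 8.35e-05 and 0.482 over all alternatives in limma, edgeR and DESeq2, and its log2 fold change between 0.75 and 1.496. *IFITM1*, with 2.73 to 6.48 CPM, had 0.32 before the subtraction, and its adjusted p lay between 0.00809 and 0.975 over the same alternatives. *ISG15* went from −1.07 to −0.26, *IRF7* from −0.87 to 0.096, and *BST2* from −1.04 to −0.54, where its groups overlapped. The 10 calls moved with single libraries. No member passed after the subtraction without CTCF-WT replicate 1 or 2 or without CTCF-dRBR replicate 2 or 3. In each of these fits at most 1 gene passed. Without CTCF-WT replicate 3, 4 members passed, all of them higher, as did 688 of 13624 genes in either direction. Without CTCF-dRBR replicate 1, 17 members passed as higher and 1 as lower (*BST2*), where 10.3% and 13.2% of all genes passed.

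With all values kept but CTCF-dRBR replicate 1 left out, 4 members passed in limma-voom and all were higher, where 1.52% of 13731 genes were called higher and 2.37% lower. They were *IFIT2* (log2 fold change 0.86), *IFI44* (0.97), *SAMD9L* (0.64) and *PARP14* (0.50), and the 4 were also among the 10 called after the GC trend was subtracted. By limma-voom the adjusted p was 0.0341, 0.0478, 0.0465 and 0.0426 in this order, and edgeR called the same 4. Over all alternatives in limma, edgeR and DESeq2 the adjusted p lay between 1.79e-04 and 0.482 for *IFI44*, between 2.04e-04 and 0.482 for *SAMD9L* and between 1.58e-04 and 0.482 for *PARP14*. In DESeq2 on all 6 libraries 10 members were called higher and 1 lower (*BST2*), where 5.38% and 6.14% of all genes were, and 8 of those 10 were among the 10 called with the GC trend removed.

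**Figure D4:**
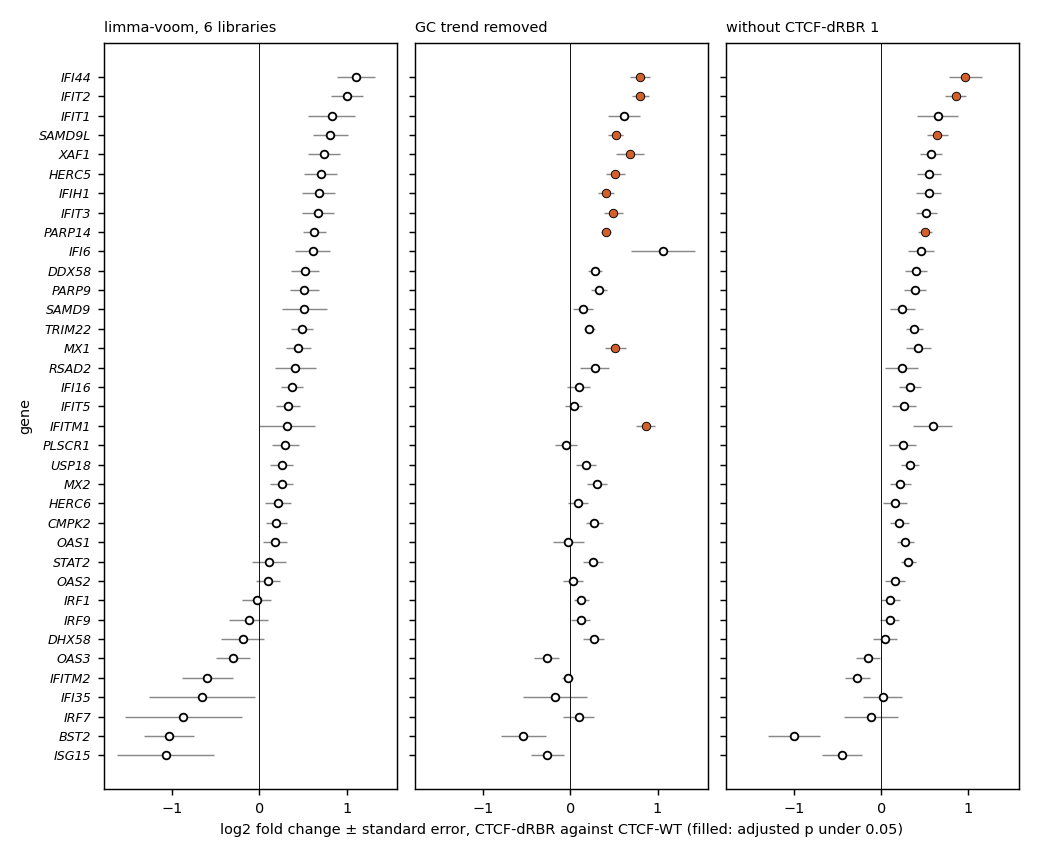
Log2 fold change with its standard error for 36 members in limma-voom on all 6 libraries, with the GC trend removed, and without CTCF-dRBR replicate 1; filled points passed an adjusted p of 0.05. *IFI44L* is left out since it did not reach 1 CPM without that library. No point is filled in the first panel, 10 are in the second and 4 in the third.

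Neighboring members were set against each other within a library, as pairs chosen after their values were seen and so given without a test. The pairs were not matched for GC content, which was furthest apart in *RSAD2* (44.7%) and *CMPK2* (49.5%). The ratio of *IFIT2* to *IFIT5* counts was 0.253, 0.213 and 0.201 in CTCF-WT and 0.405, 0.332 and 0.335 in CTCF-dRBR. That of *HERC5* to *HERC6* was 6.76, 7.04 and 9.25 in CTCF-WT and 12.7, 10.1 and 9.90 in CTCF-dRBR. For *SAMD9L* to *SAMD9* it was 0.126, 0.132 and 0.119 in CTCF-WT and 0.140, 0.157 and 0.175 in CTCF-dRBR. The GC contents are 42.7% and 38.8% in the first pair, 43.1% and 45.0% in the second, and 38.6% and 36.0% in the third. The ratios of *IFIT3* and *IFIT1* to *IFIT5*, of *MX1* to *MX2* and of *IFITM1* to *IFITM2* were also higher in every CTCF-dRBR library. Those of *OAS1* to *OAS2*, *PARP14* to *PARP9*, *RSAD2* to *CMPK2* and *IFI44* to *IFI44L* overlapped between the groups.

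**Figure D5:**
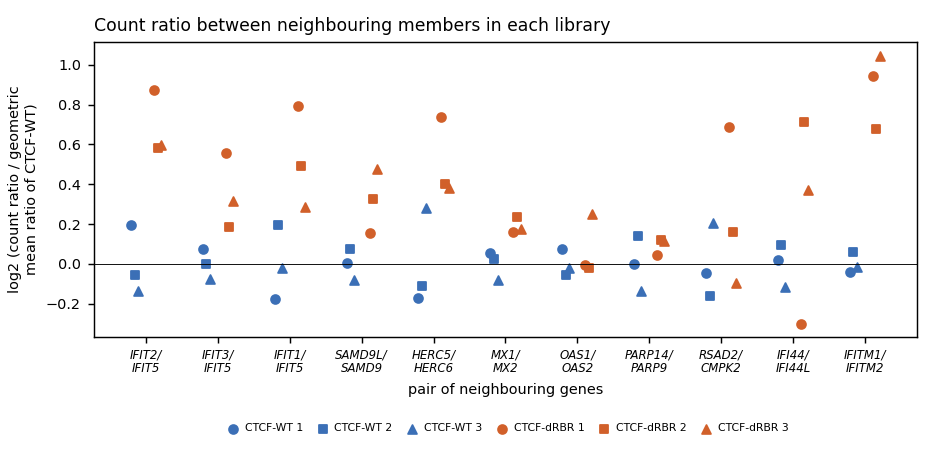
Ratio of expected counts between 11 pairs of members that lie near each other, as log2 over the geometric mean ratio of CTCF-WT, with CTCF-WT in blue, CTCF-dRBR in orange and the shape giving the replicate. In 7 pairs all CTCF-dRBR points lie above all CTCF-WT points, with the widest gap in *IFITM1* to *IFITM2*.

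On a scale per length the members spanned a wide range. TPM, rescaled to the protein-coding genes of each library, were highest for *IFITM2*, with a mean ± SD over 3 libraries of 702 ± 102 (CTCF-WT) and 496 ± 206 (CTCF-dRBR). *BST2* followed in CTCF-WT at 114 ± 28.8, then *TRIM22* at 53.2 ± 6.48, *IFI16* at 49.4 ± 6.02 and *PLSCR1* at 44.5 ± 5.93, and *TRIM22*, *IFI16* and *PLSCR1* did not differ from their neighbors among these 3 beyond their spread. *PARP14* moved from 30.8 ± 5.57 to 61.5 ± 19.8 and *ISG15* from 29.1 ± 5.05 to 16.8 ± 11.8. The classical marker *IFIT1* was at 1.56 ± 0.352 and 2.96 ± 0.603, *MX1* at 3.20 ± 0.182 and 3.91 ± 0.872, and *EPSTI1* was lowest in CTCF-WT at 0.0944 ± 0.0349. Levels of *IFIT1*, *IFI44* and *MX1* were thus low next to *IFITM2* in all libraries.

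Among the 18 tested members with an ISRE match in a window, 15 were higher in CTCF-dRBR, with a median log2 fold change of 0.52 and a median GC content of 43.0%; without *IFI44L* these were 14 of 17 and 0.52. Among the 11 with a window and no match, 8 were higher, with a median of 0.19 and a median GC content of 46.7%. With the GC trend removed the medians were 0.40 and 0.13. The difference was not tested, and the genes without a match include *XAF1*, *SAMD9L* and *DDX58*, which stood higher.

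Transcripts of the interferons themselves were at or near the limit of counting. None of the 21 interferon genes listed (types alpha, beta, epsilon, kappa, omega, gamma and lambda) had more than 5 counts in a library, and 6 had 0 in all. A count of 0 allows up to 3 counts, between 0.0564 and 0.0999 CPM, a limit for counting error only.

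Of the 10 receptor and kinase genes, 6 were higher and 4 lower, with none past the threshold. *JAK1*, the kinase of IFNAR2, had 185, 194 and 229 CPM in CTCF-WT and 322, 282 and 264 in CTCF-dRBR, with 0.51 on the log2 scale (SE 0.12, limma-voom, adjusted p = 0.127) and no overlap. *TYK2*, the kinase of IFNAR1, had 82.9, 81.2 and 66.3 CPM in CTCF-WT and 22.8, 47.8 and 68.9 in CTCF-dRBR, with −0.79 (SE 0.36, limma-voom, adjusted p = 0.214), lowest in CTCF-dRBR replicate 1. *TYK2* is GC-rich (59.9%), and its log2 fold change was −0.16 with the GC trend removed, against 0.53 for *JAK1*. The receptor chains *IFNAR1* (58.7, 55.6 and 52.4 CPM in CTCF-WT and 52.5, 51.1 and 49.0 in CTCF-dRBR) and *IFNAR2* (18.1, 16.1 and 14.6 CPM in CTCF-WT and 12.4, 14.4 and 13.4 in CTCF-dRBR) were at −0.13 and −0.27 on the log2 scale, and *IFNAR2* was lower in every CTCF-dRBR library. In the annotation *IFNAR2* overlaps the protein-coding gene *IFNAR2-IL10RB* on the same strand. Noncoding RNAs and a pseudogene overlap *JAK1* on the same strand. *IFNGR1*, the ligand-binding chain for interferon gamma, was at 0.36, with 26.1, 29.5 and 30.2 CPM in CTCF-WT and 38.8, 38.6 and 33.5 in CTCF-dRBR.

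The genes that lead to interferon production, 14 tested rows of 17, were 6 higher and 8 lower, with a median log2 fold change of −0.26 and a median GC content of 54.0%. At an unadjusted p under 0.05, 3 were higher and 1 lower, against 12.6% and 12.8% of all genes. The 3 with the smallest p were *TRAF6*, a ubiquitin ligase of the Toll-like receptor pathway, at 0.48, and the endosomal RNA receptors *TLR7* and *TLR3*, at 0.81 and 0.55. *TLR7* had 1.22, 1.21 and 1.17 CPM in CTCF-WT and 2.78, 2.17 and 1.65 in CTCF-dRBR. *IRF3*, the factor that first switches on interferon beta, had 55.0, 57.3 and 37.9 CPM in CTCF-WT and 18.2, 28.7 and 38.2 in CTCF-dRBR, with −0.81 (SE 0.29, limma-voom, adjusted p = 0.170) and −0.21 with the GC trend removed. The negative regulators split 4 to 3, led by *IRF2* at 0.43, *PTPN6* at −0.36 and *CISH* at −0.92, and *SOCS1* and *SOCS3* were below 1 CPM.

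A further 44 interferon-stimulated genes, of which 39 were tested, were split in direction. They were 21 higher and 18 lower, with a median log2 fold change of 0.02 and a median GC content of 44.2%. At an unadjusted p under 0.05, 7 were higher and 3 lower (12.6% and 12.8% of all genes were). With the GC trend removed the median was 0.02, with 2 of 38 called in each direction, where 3.97% of all genes were called higher and 5.27% lower. The 3 with the smallest p were *GBP4* at 0.50 (SE 0.10), *GBP3* at 0.56 (SE 0.13) and *TNFSF10*, which encodes the death ligand TRAIL, at 1.29 (SE 0.32) on the log2 scale. *GBP4*, a GTPase induced by interferon gamma, had 27.1, 26.7 and 28.2 CPM in CTCF-WT and 36.8, 40.1 and 38.4 in CTCF-dRBR (limma-voom, adjusted p = 0.108). *TNFSF10* had 2.24, 2.65 and 3.64 CPM in CTCF-WT and 10.6, 5.85 and 5.40 in CTCF-dRBR (limma-voom, adjusted p = 0.130), and both were without overlap. *EIF2AK2*, which encodes the RNA-activated kinase PKR, had 118, 116 and 115 CPM in CTCF-WT and 148, 97.9 and 92.6 in CTCF-dRBR, highest in CTCF-dRBR replicate 1 and below all CTCF-WT libraries in the other 2, with −0.088 on the log2 scale. *ADAR*, which edits double-stranded RNA, had 342, 352 and 374 CPM in CTCF-WT and 316, 359 and 355 in CTCF-dRBR and −0.052. The lists are held apart only by the choice of symbols, which was made with earlier results known, and the difference between them was not tested.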

How the data were processed

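Total RNA depleted of rRNA was sequenced from 3 CTCF-WT and 3 CTCF-dRBR libraries, grouped by their titles. The labels call the reads single-end and the study's methods paired-end. The authors trimmed reads with Trim Galore 0.6.3, aligned them to hg19 with STAR 2.7.9a and quantified Gencode v19 genes with RSEM 1.3.1, and they deposited expected counts and TPM per gene. The deposited tables are labeled as stranded RNA, but the strand setting used in the counting is not given in the sources used here. Deposited TPM depends on the other genes of a library, and protein-coding genes took 30.2% to 63.2% of it, so counts were used for the tests.

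Genes with at least 1 CPM in any library were kept, scaled by TMM and tested with limma-voom (limma 3.58.1, edgeR 4.0.16, R 4.3.3), two-sided, with Benjamini-Hochberg adjustment over all genes and a threshold of 0.05. Expected counts were rounded for edgeR's quasi-likelihood test and DESeq2 1.42.0. GC content and GRCh37 coordinates came from Gencode v44 lifted to GRCh37 by Ensembl identifier. The GC trend was a loess fit (span 0.5, degree 2) per library. Totals of 30034505 to 53166735 counts set a limit of 0.0564 to 0.0999 CPM for a count of 0. Intervals of this kind cover counting error only. In all, 26 alternatives were run.

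The members and lists were chosen with earlier results of these data known. Members with a mean of at least 10 CPM in either group or an unadjusted p under 0.05 were named with the values of each library, the others by their range. Beyond the members, *CTCF*, *JAK1*, *TYK2*, *IFNAR1*, *IFNAR2*, *IRF3*, *EIF2AK2* and *ADAR* and the 3 genes with the smallest p in each other list were named, and *DTX3L*, *SOCS1* and *SOCS3* were added after their values were seen. The value of 1 further gene that this rule names by symbol, not by its p, is not reported here. Replicate numbers are shared by the groups, and deviations of same-numbered libraries correlated at −0.34, 0.10 and −0.47. Deviations of libraries also followed GC content, so these values cannot show whether the numbers pair the libraries. The main test did not pair them.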

Additional observations from a re-analysis of the deposited data

How the results depend on the processing

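Against 0 of 14044 genes, 0 members and 0 genes of the other pathway lists past the threshold in limma-voom, DESeq2 called 1619, 11 and 8, voom with quality weights 9583, 31 and 50, limma-trend on log2(TPM + 1) 833, 7 and 2, on log2(TPM + 0.1) 760, 8 and 2, and the fit with the GC trend removed 1261, 10 and 7. EdgeR without CTCF-dRBR replicate 1, an alternative added after seeing the data, called 561, 4 and 1. With each library left out the counts were 0 to 535, 0 to 4 and 0 to 1, and with the GC trend also removed (added after seeing the data) 0 to 3143, 0 to 18 and 0 to 19. The most were called without CTCF-dRBR replicate 1, which had a quality weight of 0.0969. With the replicate block 0 members were called, also with the GC trend removed, where the median was 0.27. Whether the numbers pair the libraries is not known. Members lower without overlap numbered 1 (17.5% of all genes were), 0 with the GC trend removed (21.7%), 0 on both TPM scales and 2 on protein-coding TPM (added after seeing the data). With a library left out they numbered 1 to 6, and 0 to 2 with the GC trend also removed. Members higher without overlap then numbered 18 to 23 and 19 to 25. Groups overlap less readily with fewer libraries, and the share of all genes was not taken there or on the TPM scales. These ranges therefore cannot be set against the share over all libraries. The median log2 fold change of 0.33 became 0.41 with library size only, 0.25 with no filter, 0.76 and 0.88 on the TPM scales, 0.41 on protein-coding TPM, 0.29 to 0.42 with a library left out and 0.24 to 0.28 with the GC trend also removed. The median of all genes moved to 0.19 with no filter and to 0.40 and 0.54 on the TPM scales. *CTCF* was 0.30 with quality weights, past the threshold.

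Of the 30 members named with values, 21 kept their direction in all alternatives run. *IRF1* reversed to 0.041 with library size only, 0.57 and 0.59 on the TPM scales, 0.13 with the GC trend removed (with and without the block) and on protein-coding TPM, and 0.11 in edgeR without CTCF-dRBR replicate 1, with −0.17 to 0.11 for a library left out and 0.063 to 0.19 with the GC trend also removed. *IRF9* reversed to 0.014 with quality weights, 0.76 and 0.84 on the TPM scales, 0.12 with the GC trend removed (with and without the block), 0.36 on protein-coding TPM and 0.10 in edgeR without that library, with −0.26 to 0.10 and 0.051 to 0.21. With the GC trend removed, without and with the block, *IRF7* was 0.096 and 0.12, *OAS1* −0.022 and −0.026 and *PLSCR1* −0.052 and −0.065. With a library left out, before and after removal of the trend, *IRF7* lay between −1.47 and −0.12 and between −0.032 and 0.29, *OAS1* between 0.11 and 0.27 and between −0.16 and 0.17, *PLSCR1* between 0.16 and 0.42 and between −0.13 and 0.053, *OAS2* between 0.0046 and 0.16 and between −0.068 and 0.11, *IFIT5* between 0.23 and 0.43 and between −0.013 and 0.11, *IFITM2* between −0.82 and −0.27 and between −0.069 and 0.0075, and *STAT2* between −0.032 and 0.31 and between 0.19 and 0.38. The cause of these changes was not tested. Depth limits what can be said of members under 1 CPM.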
